A study of Mus musculus with 6 samples.

Results

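The immediate early genes examined here are Fos, Fosb, Jun, Junb, Atf3, Egr1, Egr2, Egr3, Nr4a1 and Ier3, 10 genes of the 54532 in the deposited count table, taken by exact gene name. All 10 had enough reads to be tested, among 13776 genes tested in all. The deposited table assigns a transcription factor family to 9 of the 10. The other one, Ier3, encodes an immediate early protein that acts in survival and signalling and is not a DNA-binding factor.

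RNA was sequenced from Kupffer cells, macrophages that reside in the liver sinusoids, after these had been sorted. The Trem2_KO group, from mice lacking Trem2, has 3 libraries, and the WT group, from littermates with intact Trem2 that the labels call control, has 3. All mice were male, were 8 weeks old when they were put on a high fat diet, and stayed on it for 8 weeks, so no group without the diet was analysed here. TREM2 binds lipids at the surface of macrophages, and the design compares Kupffer cells with and without it. The labels do not say whether Trem2 was removed in every cell or only in macrophages, nor whether every library came from its own animal. The p-values therefore reflect only how far these libraries differ, which may be technical.

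Immediate early genes are transcribed within minutes of a stimulus, from factors that are already present in the cell. MAP kinases phosphorylate the ternary complex factors that sit with SRF on serum response elements, and CREB and ATF proteins act through cyclic AMP response elements, so that transcription needs no new protein. The FOS and JUN proteins pair into the AP-1 dimer, EGR proteins bind GC-rich sites through zinc fingers, and NR4A1 is an orphan nuclear receptor. In macrophages these genes respond to lipids, cytokines and microbial products. They also respond to tissue digestion and cell sorting, as heat shock genes do.

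Libraries held 16347967 to 17135603 counts in Trem2_KO and 15799351 to 15893041 counts in WT. Trem2 itself averaged 16.2 ± 1.503 CPM (counts scaled to a common library size) in Trem2_KO and 86.4 ± 3.20 CPM in WT (SD, n = 3 each). No source used here gives the deleted part of the gene, so the remaining reads cannot be placed in or outside it. Kupffer cell markers were abundant in both groups. Clec4f averaged 4503 FPKM (fragments per kilobase of transcript, scaled by a constant close to the library total) in Trem2_KO and 4966 FPKM in WT. The 10 immediate early genes together took 0.326% to 0.335% of all counts in Trem2_KO and 0.258% to 0.259% in WT. The 2 ranges did not overlap.

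Of the 10 genes, 7 rose and 2 fell in Trem2_KO at an adjusted p under 0.05, and Egr3 was not called. Across all tested genes 15.3% were called higher and 15.1% lower, 30.4% in all, so changes of this kind were common in these libraries. The libraries of the 2 groups did not overlap for 9 of the 10 genes, against 41.6% of all tested genes. Trem2_KO lay above WT in 7 of them (20.9% of all tested genes) and below in 2 (20.7%). Among all called genes 50.3% were higher with TMM scaling and 61.3% with total counts, and 7 and 2 of the 10 genes were called under both. The median log2 change was 0.42 over the 10 genes and -0.01 over all tested genes. Egr1, Egr2, Fosb and Atf3 had the largest rises, and at most 5.11% of tested genes changed by more than any of these 4. Of the 10 genes only these 4 were called when the assumed variation between samples was raised to a coefficient of 0.2, against the estimated 0.0378. The changes of Fos and Jun were small, and 46.5% and 63% of tested genes changed by more.

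The promoters of 6 genes that rose and of Jun, which fell, are shown so that the motifs of immediate early promoters can be read beside the values. The RefSeq table of build GRCm38.p6 held windows for 8 of the 10 genes, not for Egr1 and Egr3. Each window runs from 250 bases before the transcription start to the base 50 after it, 300 bases in all, and is written 5′ to 3′ on the gene's strand. Fos lies at chr12:85473640-85473939 (+), Fosb at chr7:19309996-19310295 (-), Junb at chr8:84978699-84978998 (-), Atf3 at chr1:191183284-191183583 (-), Nr4a1 at chr15:101266596-101266895 (+), Egr2 at chr10:67535249-67535548 (+) and Jun at chr4:95052173-95052472 (-). The start of Fos and Jun is the 5′ end of the annotated gene, while that of Fosb lies 6 bases, Egr2 24 bases, Nr4a1 12577 bases and Atf3 34706 bases inside the gene, and that of Junb 30 bases outside it. Capitals mark every match to a searched motif.
Fos: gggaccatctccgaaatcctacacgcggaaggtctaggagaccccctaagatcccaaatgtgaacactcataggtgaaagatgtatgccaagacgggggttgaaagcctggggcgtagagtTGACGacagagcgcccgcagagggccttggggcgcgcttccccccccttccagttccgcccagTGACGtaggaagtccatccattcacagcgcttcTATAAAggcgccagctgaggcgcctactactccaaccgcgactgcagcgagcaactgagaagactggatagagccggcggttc
Fosb: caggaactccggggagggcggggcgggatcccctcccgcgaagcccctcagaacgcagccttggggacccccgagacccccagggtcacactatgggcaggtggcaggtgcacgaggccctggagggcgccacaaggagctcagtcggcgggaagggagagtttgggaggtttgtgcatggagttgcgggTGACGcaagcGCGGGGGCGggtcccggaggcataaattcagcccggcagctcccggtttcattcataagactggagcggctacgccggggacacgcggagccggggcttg
Junb: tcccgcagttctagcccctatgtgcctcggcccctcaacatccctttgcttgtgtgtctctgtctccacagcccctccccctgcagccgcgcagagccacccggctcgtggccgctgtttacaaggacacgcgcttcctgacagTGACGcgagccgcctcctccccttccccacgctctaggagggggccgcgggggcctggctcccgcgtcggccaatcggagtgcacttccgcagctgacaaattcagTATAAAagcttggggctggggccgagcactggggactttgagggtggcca
Atf3: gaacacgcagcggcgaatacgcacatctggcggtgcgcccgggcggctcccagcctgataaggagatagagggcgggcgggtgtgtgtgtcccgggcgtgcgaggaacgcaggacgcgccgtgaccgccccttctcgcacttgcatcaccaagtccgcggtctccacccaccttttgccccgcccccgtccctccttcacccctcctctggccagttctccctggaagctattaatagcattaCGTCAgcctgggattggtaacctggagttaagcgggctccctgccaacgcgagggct
Nr4a1: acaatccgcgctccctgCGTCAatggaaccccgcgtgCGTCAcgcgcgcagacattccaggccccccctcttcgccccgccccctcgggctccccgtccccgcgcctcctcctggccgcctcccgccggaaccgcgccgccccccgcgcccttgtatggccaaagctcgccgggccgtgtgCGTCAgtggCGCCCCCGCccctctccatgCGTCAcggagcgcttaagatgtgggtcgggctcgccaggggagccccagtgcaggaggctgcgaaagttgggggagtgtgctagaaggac
Egr2: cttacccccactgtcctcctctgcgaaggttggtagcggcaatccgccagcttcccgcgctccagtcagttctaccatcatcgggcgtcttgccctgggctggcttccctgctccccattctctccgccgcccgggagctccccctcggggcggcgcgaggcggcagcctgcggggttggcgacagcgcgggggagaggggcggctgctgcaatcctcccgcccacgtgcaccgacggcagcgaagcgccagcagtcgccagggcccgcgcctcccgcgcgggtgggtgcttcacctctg
Jun: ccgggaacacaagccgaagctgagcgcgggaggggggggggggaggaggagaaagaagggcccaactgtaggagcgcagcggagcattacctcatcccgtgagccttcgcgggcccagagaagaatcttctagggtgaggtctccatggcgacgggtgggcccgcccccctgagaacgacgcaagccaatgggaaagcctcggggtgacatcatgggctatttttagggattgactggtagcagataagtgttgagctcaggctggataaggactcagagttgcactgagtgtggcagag
The core of the cyclic AMP response element, TGACG or its reverse CGTCA, was found in 5 of the 8 windows, against 20.8% of all 32851 windows in the table. It occurred 4 times in Nr4a1, 2 times in Fos and 1 time each in Fosb, Junb and Atf3, all of which rose. It was not found in the windows of Jun and Ier3, which fell, or in that of Egr2, which rose. RefSeq gave 5 starts for Egr2, and only the window of the start nearest the annotated 5′ end was searched. Only Jun and Ier3 of the genes with a window fell, and a link between the core and the direction of change was not tested. The windows of Egr2, Jun and Ier3 held no exact match to any of the searched motifs, and near matches were not counted. This core was added to the search after the windows had been read, so the count is a description. The full element TGACGTCA (1.79% of all windows), the AP-1 site TGANTCA (7.81%) and the CArG box of SRF (1.63%) were found in none of the 8. Sites more than 250 bases before the start, and any site of Egr1 and Egr3, which had no window, were not searched. The EGR site GCGNGGGCG was found in Fosb and Nr4a1, against 5.55% of all windows. The letters TATAAA were found in Fos at positions -33 to -28 from the start and in Junb at positions 1 to 6, against 13.6% of all windows. The Junb start used here lies 30 bases outside the annotated gene, so these letters lie before the annotated 5′ end of Junb. All motifs were searched on both strands, and the full element contains the core. A match is a match of letters only, and binding was not measured.

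The FOS genes rose, Fosb far more than Fos. Fos (ENSMUSG00000021250, chromosome 12, 85473890 to 85477273, GRCm38) encodes the classical FOS subunit of AP-1. It had 969, 936 and 988 CPM in the Trem2_KO libraries and 859, 862 and 845 CPM in the WT libraries. Every Trem2_KO library lay above every WT library, by a small margin, and Fos rose by 0.17 on the log2 scale (SE 0.026, n = 3 per group, edgeR adjusted p = 3.86e-07). Fosb (ENSMUSG00000003545, chromosome 7, 19302696 to 19310051) encodes a second FOS subunit, which accumulates under repeated stimulation in the nervous system. It had 444, 463 and 456 CPM in Trem2_KO, against 251.7, 252.9 and 251.2 CPM in WT. The groups were far apart and the WT libraries nearly identical, and Fosb rose by 0.85 on the log2 scale (SE 0.030, n = 3 per group, edgeR adjusted p = 5.11e-30). Per gene length, Fosb stayed the minor of the pair, at 72.4 ± 1.64 FPKM in Trem2_KO and 40.2 ± 0.164 FPKM in WT, while Fos was at 407 ± 11.1 FPKM in Trem2_KO and 362 ± 4.23 FPKM in WT (SD, n = 3).

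The JUN genes went in opposite directions. Junb (ENSMUSG00000052837, chromosome 8, 84974484 to 84978718) encodes a JUN subunit that is a weaker activator than JUN on many AP-1 sites. Its level was 636, 649.8 and 665 CPM in Trem2_KO and 526, 548 and 541 CPM in WT. The groups did not overlap, and Junb rose by 0.27 on the log2 scale (SE 0.0276, n = 3 per group, edgeR adjusted p = 1.04e-11). Jun (ENSMUSG00000052684, chromosome 4, 95049034 to 95052222) encodes the founding member of the family, which can activate its own promoter. Its level was 512, 513 and 516 CPM in Trem2_KO and 549, 557 and 556 CPM in WT. Every Trem2_KO library lay below every WT library and Jun fell by 0.11 on the log2 scale (SE 0.0272, n = 3 per group, edgeR adjusted p = 0.00135), a fold of 0.927 with a 95% interval of 0.893 to 0.963. Before scaling, the mean raw count of Jun was 8695 in Trem2_KO and 8671 in WT, so the fall appears after scaling for library size. Junb overlaps Prdx2 over 351 bases on the other strand and Jun overlaps the antisense gene Junos over 689 bases. No source used here gives the strand setting of the counting, so reads of such pairs cannot be told apart. Prdx2 changed by -0.14 (edgeR adjusted p = 0.00556), opposite to Junb, a call that was lost after removal of a trend with gene length. Junos had 14, 15 and 18 reads in Trem2_KO and 9, 3 and 5 in WT, a small number beside those of Jun.

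**Figure D1:**
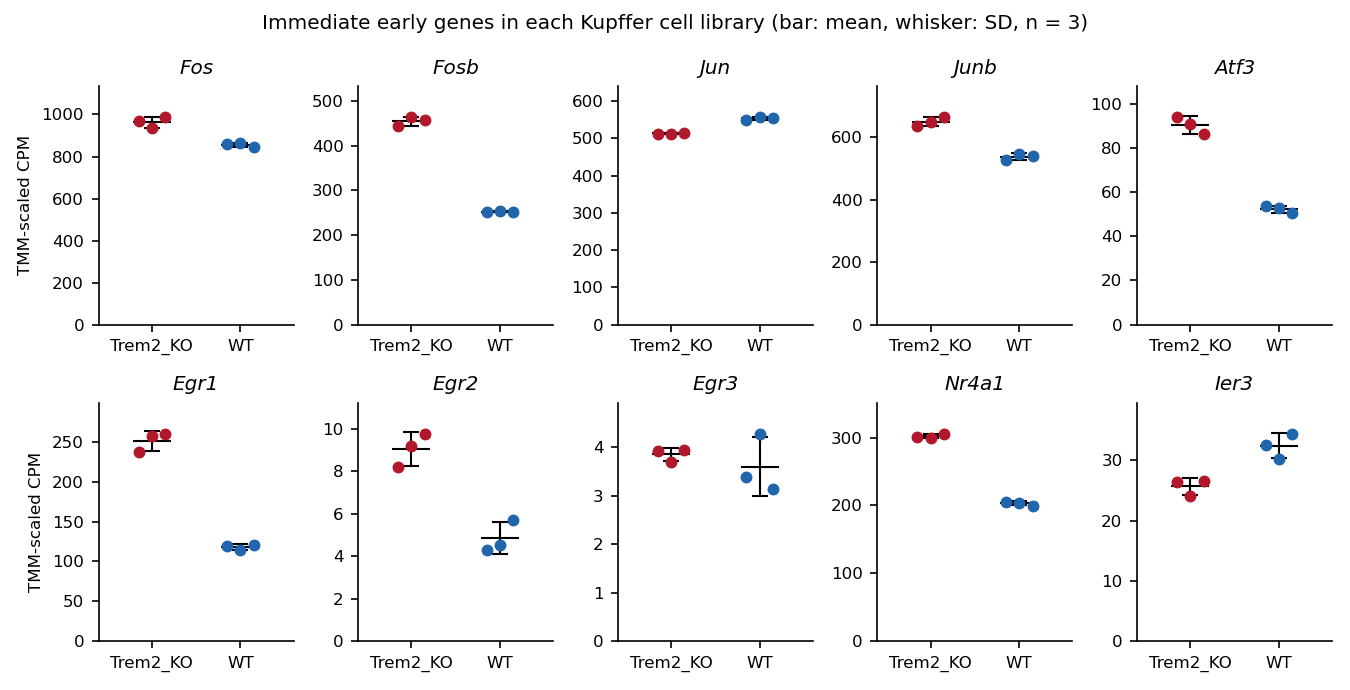
TMM-scaled CPM (vertical axis, starting at 0, one scale per gene) of the 10 immediate early genes in each of the 3 Trem2_KO libraries (red) and 3 WT libraries (blue), with the mean (bar) and SD (whisker). The 2 groups overlap for Egr3 and for no other gene, and the Trem2_KO libraries lie below the WT libraries for Jun and Ier3.

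The balance within the AP-1 pairs can be read per library from FPKM. The ratio of Fosb to Fos was 0.172, 0.187 and 0.174 in Trem2_KO and 0.110, 0.111 and 0.112 in WT. The ratio of Junb to Jun was 1.72, 1.75 and 1.79 in Trem2_KO, against 1.33, 1.36 and 1.35 in WT. Neither ratio overlapped between the groups. Each gave p = 0.1 in a two-sided exact permutation test over the 6 libraries, the smallest p that 3 against 3 libraries allow, and p = 0.125 after adjustment over 5 ratios. Junb was thus above Jun in every library of both groups, per gene length. All 5 ratios were added after the values of these genes were seen, so their separation and p-values are descriptions only. Fos, Fosb, Jun and Junb together made up 81.5% ± 0.138 of the summed FPKM of the 10 genes in Trem2_KO and 85.4% ± 0.282 in WT (SD, n = 3).

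Atf3 (ENSMUSG00000026628, chromosome 1, 191170296 to 191218039) encodes a stress-induced member of the same leucine zipper superfamily, known in macrophages as a brake on Toll-like receptor responses. It had 93.9, 91.0 and 86.1 CPM in Trem2_KO, against 53.6, 52.7 and 50.3 CPM in WT. The groups did not overlap, and Atf3 rose by 0.79 on the log2 scale (SE 0.0503, n = 3 per group, edgeR adjusted p = 6.46e-19). The annotated RNA gene that overlaps it on the other strand, Gm24748, had 0 reads in all 6 libraries.

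Among the EGR genes, Egr1 and Egr2 rose and Egr3 was not called. Egr1 (ENSMUSG00000038418, chromosome 18, 34859823 to 34864984) encodes the zinc finger factor that links growth factor and stress signals to inflammatory and repair genes. It had 237, 257 and 260.4 CPM in Trem2_KO and 119.5, 114 and 120.6 CPM in WT. Each Trem2_KO library was well above every WT library, and Egr1 rose by 1.09 on the log2 scale (SE 0.0378, n = 3 per group, edgeR adjusted p = 2.38e-30), a fold of 2.13 with a 95% interval of 2.02 to 2.25. Egr2 (ENSMUSG00000037868, chromosome 10, 67535475 to 67542188) encodes a related factor of alternatively activated macrophages and of myelinating Schwann cells. It had 142, 151 and 166 reads in Trem2_KO, or 8.21, 9.17 and 9.77 CPM, and 67, 71 and 89 reads in WT, or 4.28, 4.54 and 5.69 CPM. The groups did not overlap, and Egr2 rose by 0.90 on the log2 scale (SE 0.146, n = 3 per group, edgeR adjusted p = 1.72e-06). Egr3 (ENSMUSG00000033730, chromosome 14, 70077203 to 70082614), best known from T cells and muscle spindles, had 68, 61 and 67 reads in Trem2_KO and 53, 67 and 49 reads in WT. These values overlap, and the log2 change of 0.10 (SE 0.192, n = 3 per group, edgeR adjusted p = 0.738) has a 95% interval from 0.820-fold to 1.40-fold. At this depth a change of that size in Egr3 was not detectable, because counting error alone is 12.4% per library in Trem2_KO and 13.3% in WT.

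Per gene length Egr1 was by far the most abundant of the 3, at 55.8 ± 2.86 FPKM in Trem2_KO and 26.2 ± 0.812 FPKM in WT, with Egr2 at 2.65 ± 0.231 FPKM in Trem2_KO and 1.42 ± 0.218 FPKM in WT (SD, n = 3). Egr3 was at 0.870 ± 0.0303 FPKM in Trem2_KO and 0.813 ± 0.137 FPKM in WT. The ratio of Egr2 to Egr1 was 0.0457, 0.0470 and 0.0495 in Trem2_KO and 0.0472, 0.0527 and 0.0623 in WT. These ratios overlap, with p = 0.2 in the two-sided exact permutation test (adjusted p = 0.2). The ratio of Egr3 to Egr1 was 0.0169, 0.0146 and 0.0154 in Trem2_KO, below all WT values of 0.0288, 0.0383 and 0.0264. The ratio of Egr3 to Egr2 was 0.369, 0.312 and 0.311 in Trem2_KO, also below the WT values of 0.610, 0.728 and 0.425. Both of these gave the smallest possible exact permutation p of 0.1 and an adjusted p of 0.125. The EGR ratios were likewise added after the values were seen.

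**Figure D2:**
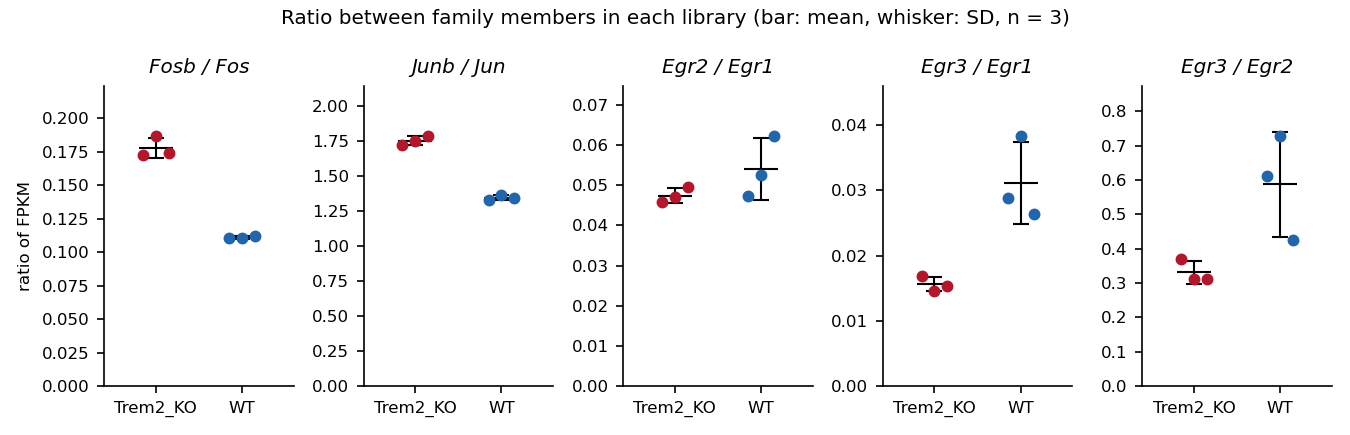
Ratio of FPKM between members of a family (vertical axis, starting at 0) in each Trem2_KO library (red) and each WT library (blue), with mean and SD (n = 3). The Trem2_KO libraries lie above the WT libraries for Fosb over Fos and Junb over Jun, lie below them for Egr3 over Egr1 and Egr3 over Egr2, and overlap them for Egr2 over Egr1.

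Nr4a1 (ENSMUSG00000023034, chromosome 15, 101254269 to 101274795) encodes NUR77, an orphan nuclear receptor that restrains inflammatory genes in macrophages and is needed for patrolling monocytes. It had 301, 299.7 and 306 CPM in Trem2_KO and 205, 204 and 199.5 CPM in WT. The libraries of each group were close together and the groups far apart, with a log2 change of 0.57 (SE 0.032, n = 3 per group, edgeR adjusted p = 2.64e-21). Its relatives Nr4a2 and Nr4a3 were read at a much lower level and also rose. Nr4a3 had 6.47, 9.17 and 7.77 CPM in Trem2_KO and 3.70, 2.30 and 2.75 CPM in WT, a log2 change of 1.41 (SE 0.176, edgeR adjusted p = 3.79e-09). Nr4a2 had 5.26, 8.01 and 8.59 CPM in Trem2_KO and 2.55, 1.73 and 4.28 CPM in WT, a log2 change of 1.35 (SE 0.284, edgeR adjusted p = 0.00375). The groups did not overlap for either gene. All 3 NR4A genes were called higher, against 15.3% of all tested genes.

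Ier3 (ENSMUSG00000003541, chromosome 17, 35821684 to 35822923), also known as IEX-1, had 26.4, 24.1 and 26.5 CPM in Trem2_KO and 32.5, 30.3 and 34.5 CPM in WT. All Trem2_KO libraries lay below all WT libraries, and Ier3 fell by 0.34 on the log2 scale (SE 0.0718, n = 3 per group, edgeR adjusted p = 0.000206). It is the only one of the 10 genes on the chromosome of Trem2, at 12.5 Mb from it. Within 20 Mb of Trem2, 43.7% of 364 tested genes were called, 90 of the 159 called genes lower, against 30.4% of all tested genes. The part of this position in the fall of Ier3 was not tested.

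**Figure D3:**
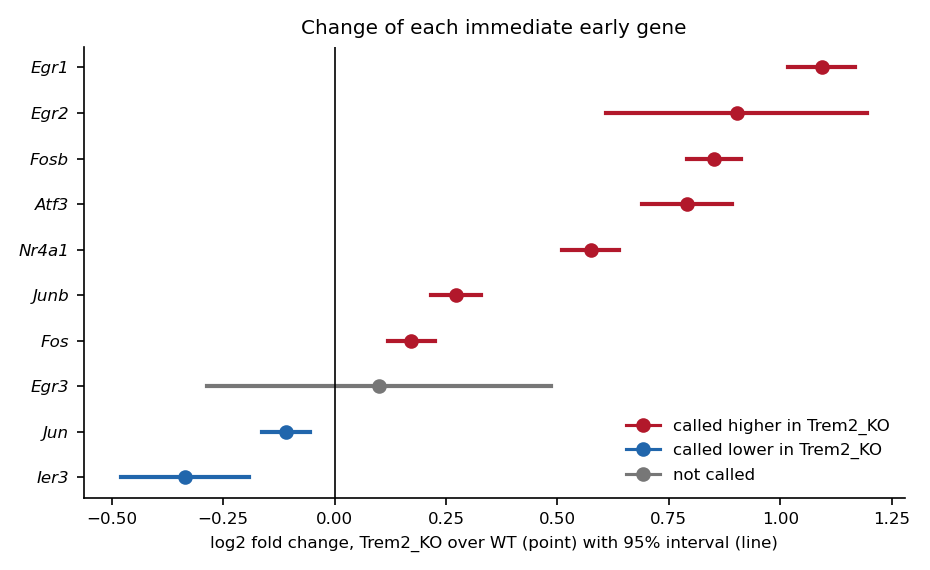
Log2 fold change of Trem2_KO over WT (horizontal axis) for each immediate early gene, with its 95% interval from the edgeR fit. Intervals of the 7 genes that rose lie above 0, those of Jun and Ier3 lie below 0, and that of Egr3 spans 0.

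Abundant and scarce genes are both present in this group of 10. In the order of mean FPKM, Fos came first, followed by Junb, Jun, Nr4a1, Fosb, Egr1, Atf3, Ier3, Egr2 and Egr3. Fos was at percentile 99.3 of the mean FPKM of tested protein-coding genes, Egr2 at 28.7 and Egr3 at 16.1. In WT alone, Ier3 at 28.5 ± 1.81, Egr1 at 26.2 ± 0.812 and Atf3 at 24.1 ± 0.81 FPKM (SD, n = 3) were close neighbours, and the ranges of Ier3 and Egr1 overlapped between libraries. In Trem2_KO these 3 were spread apart, with a mean of 22.6 FPKM for Ier3, 55.8 FPKM for Egr1 and 41.7 FPKM for Atf3, and their ranges did not overlap. The coefficient of variation between libraries of one group ran from 0.341% for Jun in Trem2_KO to 16.8% for Egr3 in WT. In 7 of 20 pairs of gene and group it was below the counting error that the mean number of reads gives. Within Trem2_KO, replicate 3 was the highest library for 8 of the 10 genes, and within WT the highest library varied.

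The 5 protein-coding genes of at least 5 CPM whose centred log2 CPM over the 6 libraries lay nearest to the mean of the 10 genes, of 9428 candidates, were Adgb, Cd36, Cttnbp2nl, Sla and Pik3cb, at Euclidean distances of 0.0359 to 0.0605. Cd36, a fatty acid and lipoprotein scavenger receptor, averaged 497 ± 10.1 CPM in Trem2_KO and 367 ± 4.63 CPM in WT. Pik3cb, a catalytic subunit of phosphoinositide kinase, averaged 69.1 ± 0.324 CPM in Trem2_KO and 51.7 ± 1.89 CPM in WT (SD, n = 3). Adgb encodes androglobin and Sla a Src-like adaptor. The 5 genes had log2 changes of 0.42 to 0.45, which follows from their choice by closeness to the mean of the 10 genes.

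Other leucine zipper genes of the AP-1, ATF and MAF families moved both ways. Of 18 tested relatives of 19 listed, 8 were called higher, 5 lower and 5 were not called, with a median log2 change of 0.12. Those called higher were 44.4% and those lower 27.8%, against 15.3% and 15.1% of all tested genes. Fosl2, which encodes the FOS-related FRA2, averaged 324 ± 4.56 CPM in Trem2_KO and 211 ± 3.58 CPM in WT, a log2 change of 0.62 (SE 0.0317, edgeR adjusted p = 9.21e-23). Jdp2, a repressor that pairs with JUN proteins, rose by 0.46 and Maff, a small MAF factor, by 1.07 on the log2 scale. Maf and Mafg rose by 0.21 and 0.24. Batf, a partner of JUN and IRF factors, fell to 17.6 ± 1.17 CPM in Trem2_KO, against 26.5 ± 0.663 CPM in WT (SD, n = 3), a log2 change of -0.59. Mafg overlaps Sirt7 on the same strand. Jund, the JUN gene that is expressed steadily rather than by induction, changed by -0.20 (edgeR adjusted p = 0.000132). It was chosen here after its value was seen, so Jun and Jund were both lower while Junb was higher. Fosl1 had 6 to 12 reads per Trem2_KO library and 4 to 7 per WT library and was not tested.

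The corepressors that EGR proteins recruit did not pass the threshold. Nab2, itself an EGR1 target, averaged 39.4 ± 1.30 CPM in Trem2_KO and 35.7 ± 0.643 CPM in WT (log2 change 0.14, edgeR adjusted p = 0.0798), and it was called with total counts in place of TMM. Nab2 overlaps Stat6, with far more reads, on the other strand. Nab1 averaged 63.6 ± 3.21 CPM in Trem2_KO and 63.6 ± 0.141 CPM in WT (edgeR adjusted p = 0.983). Egr4 had 3, 2 and 0 reads in Trem2_KO and 0, 1 and 1 in WT.

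A wider list of primary response genes was higher in most of its members. Of 38 tested genes of 39 listed, 26 were called higher, 5 lower and 7 were not called, with a median log2 change of 0.32. Those called higher were 68.4% and those lower 13.2%, against 15.3% and 15.1% of all tested genes. Per1, a clock gene that is also induced acutely, averaged 313 ± 4.50 CPM in Trem2_KO and 169 ± 7.36 CPM in WT, a log2 change of 0.89. Tnfaip3, which encodes the NF-kB inhibitor A20, rose by 1.02 on the log2 scale. Gadd45b, a stress gene upstream of p38 and JNK, rose by 1.27, and Cyr61, a matricellular protein gene induced through SRF, by 1.22. Csrnp1, a nuclear protein gene induced by AXIN1, rose by 1.10, and it shares sequence on the same strand with Cx3cr1, which had 1029 reads over the libraries. Sgk1, a kinase gene induced by serum and glucocorticoids, rose by 0.47. All 6 had edgeR adjusted p-values of 5.32e-19 or below. The 5 that were called lower were Gadd45g, Rhob, Trib1, Ier5 and Phlda1, with log2 changes of -0.53, -0.21, -0.21, -0.16 and -1.08, named after their values were seen. The call of Phlda1 was lost without WT replicate 1.

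**Figure D4:**
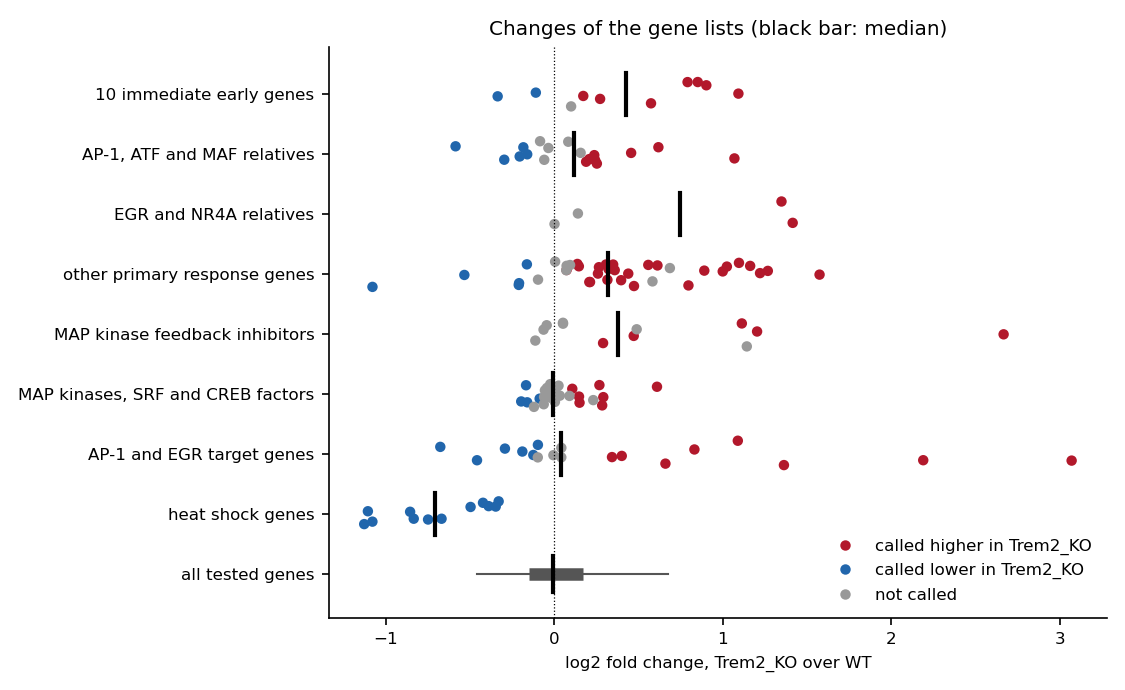
Log2 fold change of Trem2_KO over WT (horizontal axis) for each tested gene of 8 lists, red where called higher, blue where called lower and grey where not called, with the list median (black bar). The bottom line gives all tested genes, with the middle 50% as a thick bar and the range from the 5th to the 95th percentile (-0.46 to 0.68) as a thin line. Primary response genes lie mostly to the right and heat shock genes lie entirely to the left.

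The kinases and factors that act on immediate early promoters moved both ways. Of 26 tested genes for MAP kinases, SRF and CREB factors, 7 were called higher (26.9%, against 15.3% of all tested genes), 4 lower (15.4%, against 15.1%) and 15 were not called. The median log2 change was -0.01, as over all tested genes. Mkl2, a coactivator of SRF, had the largest value among those called higher, 0.61 (SE 0.0732, edgeR adjusted p = 1.49e-09). The ternary complex factor genes Elk1 and Elk4 rose by 0.28 and 0.27. Braf was at 0.15 and was called, but the call was lost with log2 FPKM, without Trem2_KO replicate 2 or WT replicate 2, and after removal of a trend with gene length, where the value was 0.02. Elk4 overlaps Mfsd4a and Braf overlaps Ndufb2 on the other strand, and Elk1 overlaps Uxt on the same strand. The p38 substrate kinase gene Mapkapk2 changed by -0.20 and Map2k2 by -0.17. These are transcript levels, and kinase activity was not measured.

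Feedback inhibitors of MAP kinases are themselves induced with the immediate early genes. Of 12 tested, 5 were called higher (41.7%, against 15.3% of all tested genes), 0 lower (against 15.1%) and 7 were not called. The median log2 change of the 12 was 0.38. Among those not called was Dusp6, with a log2 change of -0.04 (edgeR adjusted p = 0.368). Dusp1, the main phosphatase of p38 and JNK in macrophages, had 1729, 1732 and 1713 CPM in Trem2_KO and 1441, 1430.1 and 1362 CPM in WT, a log2 change of 0.29 (SE 0.0246, edgeR adjusted p = 2.91e-14). Dusp2 rose by 1.11, Dusp5 by 2.67 and Dusp10 by 0.47 on the log2 scale. Dusp8 was called higher, with 51, 41 and 73 reads in Trem2_KO and 30, 16 and 20 reads in WT. Dusp4 was at 1.14 and was not called (edgeR adjusted p = 0.0825), with 13.7 reads on average in Trem2_KO and 5.67 in WT.

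Textbook target genes of AP-1 or EGR factors went both ways. Of 18 tested genes, 8 were called higher and 6 lower, with a median log2 change of 0.04 and a mean of 0.45. Those called higher were 44.4% and those lower 33.3%, against 15.3% and 15.1% of all tested genes. Mmp13, a collagenase gene with an AP-1 site in its promoter, averaged 26.7 ± 0.388 CPM in Trem2_KO and 3.17 ± 0.0963 CPM in WT. Cxcl2, a neutrophil chemokine, rose by 1.09, Mmp9 by 1.36 and Vegfa, which lies 2.33 Mb from Trem2, by 2.19. Hmox1 and Ccl2 were lower, with log2 changes of -0.46 and -0.68. Mmp3 had 0 reads in all libraries.

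Heat shock genes, which are induced with immediate early genes when tissue is dissociated, moved the other way. All 12 listed genes were tested and all 12 were called lower, against 15.1% of all tested genes, with a median log2 change of -0.71. Hsph1, a nucleotide exchange factor for HSP70, had 145, 145 and 138 CPM in Trem2_KO and 312, 308 and 315 CPM in WT, a log2 change of -1.13. Hsp90aa1 fell by 0.75, Dnaja1 by 0.83 and Dnajb1 by 0.85. Hspa1a and Hspa1b fell by 0.67 and 1.08, but they are near-identical copies whose reads may be split, and they lie 13.4 Mb from Trem2. The labels give no day or order of cell preparation, and the part of cell handling in these changes was not tested.

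Markers of other liver cells were measured beside these changes, because immediate early genes are active in many cell types and bulk RNA cannot tell fewer cells of a type from less RNA per cell. The counts of called markers stand beside 15.3% of all tested genes called higher and 15.1% called lower. Of 16 Kupffer cell markers, 0 were called higher and 12 lower. Their summed FPKM was 24746 to 25359.8 in Trem2_KO and 27782 to 28943 in WT. Marco, Timd4, Cd5l and Clec4f had log2 changes of -1.11, -0.34, -0.20 and -0.14, all called lower. Of 16 endothelial markers, 12 were called higher and 2 lower, with a sum of 408 to 411 FPKM in Trem2_KO and 423 to 424 FPKM in WT. Most of that sum came from Cdh5, at 267 FPKM in Trem2_KO and 298 FPKM in WT, while Ptprb, Ehd3 and Flt4 rose by 0.67, 0.61 and 0.75 on the log2 scale. Among 11 monocyte markers 5 rose, Ccr2 and Cx3cr1 by 1.45 and 1.46 on the log2 scale, and 2 fell, with a sum of 242 to 254 FPKM in Trem2_KO and 270.4 to 278 FPKM in WT. Most of that sum came from Treml4, which lies 0.0821 Mb from Trem2 and averaged 192 FPKM in Trem2_KO and 218 FPKM in WT. Of 19 hepatocyte markers, 5 were called higher and 8 lower, with a sum of 811 to 825 FPKM in Trem2_KO and 991 to 1010.0 FPKM in WT.

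Lymphocyte and granulocyte markers were scarce. The lists here are short, and 15.3% of all tested genes were called higher and 15.1% lower. The summed FPKM of 11 neutrophil markers was 56.3 to 58.1 in Trem2_KO and 60.3 to 64.4 in WT, mostly from Csf3r, with 1 of 5 tested called higher and 1 lower. B and plasma cell markers summed to 28.4 to 32.7 FPKM in Trem2_KO and 37.2 to 39.6 FPKM in WT, with 3 of 8 tested called lower and 0 higher. T and NK cell markers summed to 2.32 to 3.10 FPKM in Trem2_KO and 2.28 to 2.72 FPKM in WT, with 1 of 4 called higher and 0 lower. Dendritic cell markers summed to 14.2 to 15.6 FPKM in Trem2_KO and 12.4 to 14.0 FPKM in WT, mostly from Clec9a, with 1 of 6 called higher and 0 lower. Stellate cell markers summed to 87.7 to 88.9 FPKM in Trem2_KO and 70.4 to 73.4 FPKM in WT, mostly from Ecm1, with 3 of 11 called higher and 0 lower. Of the cholangiocyte markers only Spp1, which macrophages also express, was tested, and it was called higher, while Krt19 and Sox9 had 0 reads in Trem2_KO. Of all these marker genes only S100a4 had 3 or fewer reads over all libraries. The part of other cell types in the changes of the immediate early genes was not tested.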

How the data were processed

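Whole-number read counts per gene were deposited by the authors with no normalization, and FPKM values equal to count over gene length and a constant per library (0.989 to 1.02 times its total) were deposited beside them. Per the submitters' processing notes, the tools were DESeq2 1.16.1, featureCounts 1.5.0-p3 and HISAT2 2.0.5, and the builds GRCm38 and mm10. No source used here gives the strand setting or the handling of reads that match several genes.

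The main test was the robust quasi-likelihood test of edgeR 4.0.16 in R 4.3.3 on the counts, with genotype as the only term, TMM scaling, filterByExpr and Benjamini-Hochberg adjustment over 13776 genes and a threshold of 0.05. The method was tested on simulated data. SE is the one implied by the quasi-F statistic, and CPM is TMM-scaled. Totals ran from 15799351 to 17135603 counts, and 3 counts, the limit a count of 0 allows, are 0.175 to 0.190 CPM, which covers counting error only. The estimated biological coefficient of variation (BCV) was 0.0378. Within a group, the libraries differed beyond sampling noise (chi-square 1.94 to 2.79 times its degrees of freedom), and each was counted as 1 sample.

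The members and lists were chosen with earlier results of these data known, as were the 5 family ratios, which were added after the values were seen. The rule for named genes took all 10 members, up to 6 genes by smallest p of each pathway list, up to 3 genes by smallest p and the most abundant one of each marker list, overlapping genes and the 5 nearest profiles, and some of these are given only within counts. Promoter windows are RefSeq's, build GRCm38.p6. The alternatives left out 1 library at a time, fixed the BCV at 0.2, added the replicate number as a block, removed a trend with gene length, changed the scaling, filter or threshold, or used DESeq2 1.42.0 or limma 3.58.1 (voom, or log2 FPKM with pseudocount 1 or 0.1).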

Additional observations from a re-analysis of the deposited data

How the results depend on the processing

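Of 21 alternatives, 19 gave 7 immediate early genes higher and 2 lower. A stricter filter gave 6 and 2, because Egr2 and Egr3 were not tested. With the BCV fixed at 0.2, 371 genes were called in all, 4 of the 10 genes were called higher (Egr1, Egr2, Fosb and Atf3) and 0 lower, so the calls of Fos, Jun, Junb, Ier3 and Nr4a1 rest on the small spread between these libraries. The median log2 change of the 10 genes was 0.42 in the main test and 0.45 with total counts. It was 0.47 after removal of the trend with gene length, whether or not the replicate block was added. Unfiltered log2(FPKM + 1) called 1979 genes. With total counts 61.3% of called genes were higher, against 50.3% with TMM, and 7 of the 10 genes were still higher and 2 lower. Leaving out each library called 3377 to 3909 genes, always with 7 and 2 of the 10, and a median of 0.41 to 0.43. Samples with the same replicate number showed no strong shared deviation (correlation -0.00787 to 0.0361). With 3 libraries per group this check cannot exclude a weak pairing by number. The replicate block called 4230 genes.

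After removal of that trend Creb1 changed by -0.12 (with the replicate block added -0.12) and Il1b by 0.0805 (0.0802), both called, while neither was called in the main test. Vsig4 was at 0.0121 (0.0119), not called, against -0.09 in the main test. Braf was at 0.02 and lost its call there. The cause was not tested. Junos lost its call in 9 alternatives, 4 of them leaving out a library, and Nr4a2 with unfiltered log2(FPKM + 1). Over single genes and lists, 340 values lost their call, 123 of them with the fixed BCV, 29 gained one and 82 list values moved. Depth limits Egr3, Egr4 and Fosl1.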
